A study of Homo sapiens with 11 samples.

Results

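The proteasome genes of RWPE1 cells were followed through a hypoxic time course. The members were chosen by name, as protein-coding genes whose symbol is PSM followed by a letter from A to G and a number, with at least 100 counts over the 11 libraries. Of 60676 genes in the count table, 50 matched the name and 48 passed the count limit. The exceptions were PSMA8, an alpha subunit of the testis with 0 counts, and PSMB11, a beta subunit of the thymus with 6. Of the 48 genes, 46 encode subunits, activators or assembly factors of the proteasome. PSME3IP1, which encodes a protein that binds an activator, and PSMC3IP, which acts in meiotic recombination, share the name but are no subunits. The 48 genes were all among the 19981 genes tested.

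The proteasome degrades proteins tagged with ubiquitin and is found in the cytosol and the nucleus of every human cell. Its barrel-shaped core is built of outer rings of alpha subunits, which gate the entrance, and inner rings of beta subunits, of which PSMB5, PSMB6 and PSMB7 carry the constitutive protease sites. A regulatory particle caps the barrel: its base holds ubiquitin receptors and a ring of ATPases that unfold the substrate, and its lid removes the ubiquitin chain. Interferon replaces the catalytic beta subunits by PSMB8, PSMB9 and PSMB10, which favors peptides for presentation to T cells, and dedicated chaperones assemble base and core. When proteasome activity falls short, the transcription factor encoded by NFE2L1 is known to raise subunit genes together.

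RWPE1 cells are human prostate epithelial cells, immortalized but not tumorigenic, grown in keratinocyte serum-free medium with pituitary extract and EGF. Libraries of RNA came from cells in normoxia (0 h, 3 libraries) and from cells kept in 1% O2 for 6 h (3 libraries), 12 h (3 libraries) or 24 h (2 libraries). Medium of the hypoxic cells also contained 10 mM HEPES buffer, so oxygen and buffer cannot be told apart in any comparison with 0 h, and all 3 of these comparisons share the same 0 h libraries. The sources used here do not say whether replicates were separate cultures, and p-values then measure only the spread between these libraries, which may be technical.

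Total counts ran from 27496009 to 49488345 per library. Values are CPM, the share of a library's counts on a fixed scale, after scaling by TMM, a method that sets most genes to no change between libraries, with factors from 0.539 to 1.32. The library 24 h replicate 2 stood apart: it had the lowest TMM factor, mitochondrial genes took 0.369% of its counts against 1.74% in 24 h replicate 1 and 10.2 to 10.4% at 0 h, and its distance to the other 24 h library was 139.9, against 40.3 to 87.1 within the other groups. The 24 h values of classes and named members are therefore also given without it, and those of the genes outside the 48 are not. Scaled by library size alone, all 19981 genes together had a median change of -0.32, -0.50 and -0.97 (log2) at 6, 12 and 24 h against 0 h, so every change below is relative to the TMM scale. CPM are shares of a library's counts, so these values measure neither cell number nor RNA per cell. In such bulk libraries, fewer cells and less RNA per cell cannot be told apart. The cells expressed all 11 markers of basal and intermediate prostate epithelium, whose summed level was 13150 to 16670 CPM at 0 h and 31910 to 59700 CPM at 24 h. These markers did not move together: 6, 7 and 8 of the 11 were higher and 3, 2 and 3 lower at 6, 12 and 24 h, with TP63 and KRT15 lower at each time and CDH1 lower at 24 h. The markers of endothelium (3 of 3), KLK3, KLK2 and TMPRSS2 of luminal cells, 4 of 5 of fibroblasts (all but COL1A1) and 4 of 5 of leukocytes (all but CD14) stayed under 1 CPM in every library. Summed over the lists, the level was at most 0.257 CPM for endothelium, 60.5 for fibroblasts and 3.64 for leukocytes.

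Proteasome genes were mostly higher in hypoxia, and more of them at 24 h than at 6 h. In the quasi-likelihood fit of edgeR, with Benjamini-Hochberg adjusted p-values under 0.05 as the limit, 23 of the 48 genes were higher and 6 lower at 6 h, where 25.1% of all tested genes were higher and 27.7% lower. At 12 h, 28 were higher and 4 lower, against 24.2% and 27.1% of all tested genes. At 24 h, 37 were higher and 3 lower, against 29.9% and 31.3%. The higher genes were thus 47.9%, 58.3% and 77.1% of the members. How far this count rose with time depended on the fit. In limma-voom with sample quality weights 30, 32 and 32 members were higher at 6, 12 and 24 h, beside 6549, 7142 and 3719 of all tested genes. In edgeR the median log2 fold change of the members was 0.43, 0.48 and 1.01, beside -0.0021, -0.033 and -0.065 over all tested genes. Leaving out 24 h replicate 2, 34 genes were higher and 4 lower at 24 h, with a median of 0.74, and without 24 h replicate 1, 38 were higher and 2 lower, with a median of 1.14. Scaled by library size alone, 9, 10 and 15 genes were higher and 10, 12 and 8 lower. Of all tested genes, 2713, 2116 and 2222 were then higher and 7130, 8444 and 11305 lower. At each time the members thus had a larger share higher and a smaller share lower than all tested genes. The member medians of 0.11, 0.0086 and 0.037 stood 0.43, 0.51 and 1.01 above the median of all tested genes.

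The libraries themselves were mostly separate. At 6 h, 31 genes had every library above those of 0 h and 9 every library below, against 33.6% and 36% of all tested genes. At 12 h these were 35 and 5 genes (34.8% and 37.5% of all tested genes), and at 24 h 40 and 4 (33.7% and 39.4%). Between 24 h and 6 h the libraries separated upward in 34 genes, beside 25.6% of all tested genes, and downward in 0, beside 27.7%. In 30 of the 48 genes all 8 hypoxic libraries lay above the highest 0 h library, as they did in 20.5% of all tested genes. The reverse held for PSMB9, PSMD5, PSMG4 and PSME3IP1, as it did in 25% of all tested genes. The per-library median over the 48 genes, as a log2 difference from the 0 h mean, was 0.47, 0.43 and 0.39 at 6 h, 0.55, 0.44 and 0.47 at 12 h, and 0.76 and 1.196 at 24 h. The 0 h libraries stood at 0.029, -0.073 and 0.032, and 0 h replicate 2 was the lowest of them, with 6 of 48 genes above their 0 h mean.

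**Figure D1:**
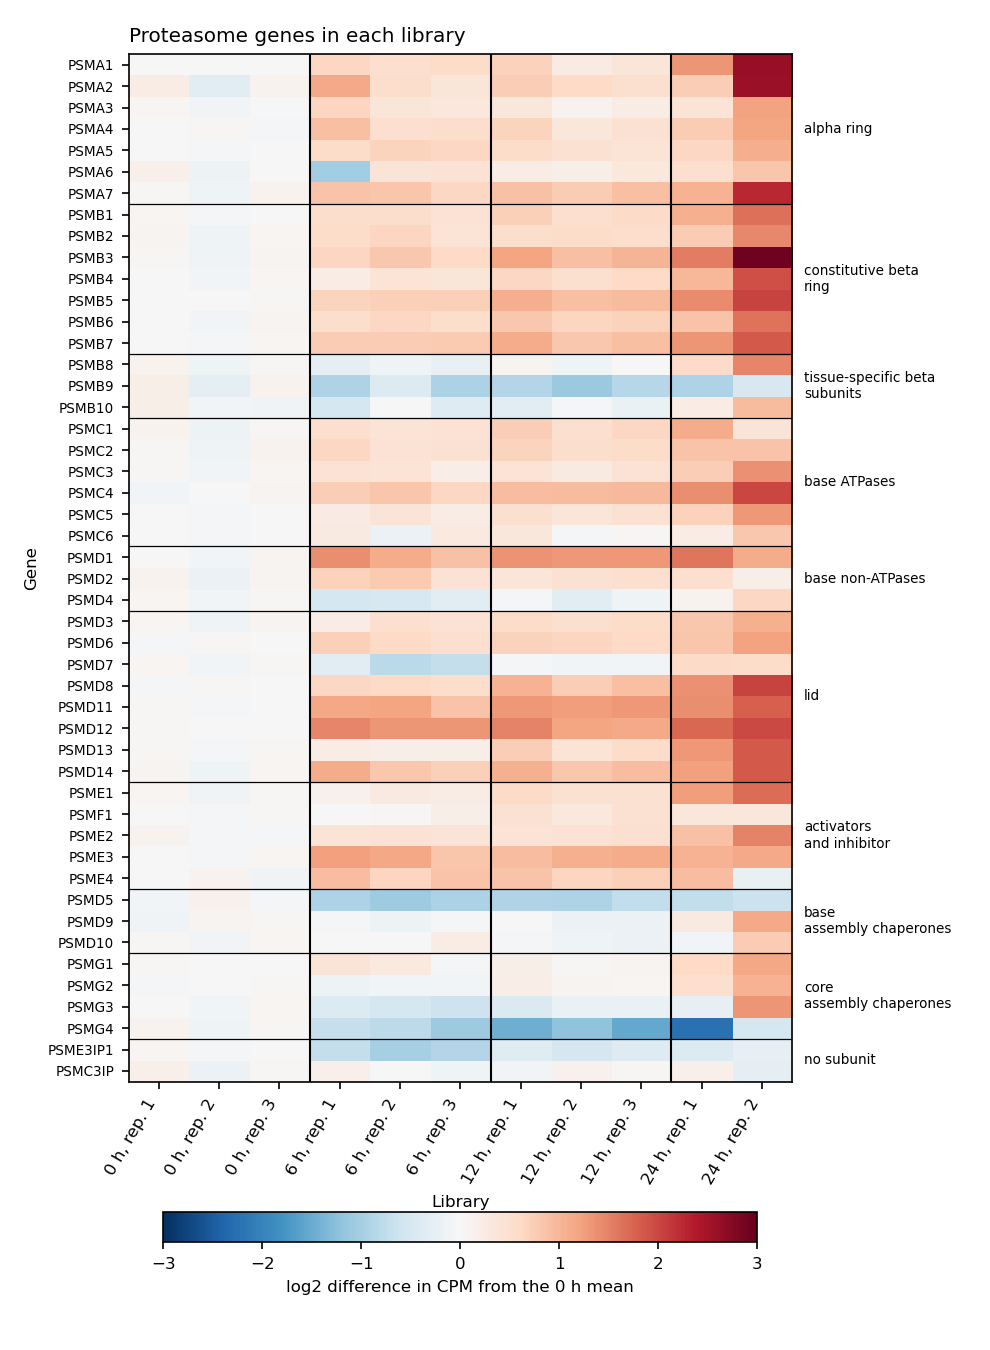
Log2 difference in CPM from the 0 h mean for each of the 48 genes (rows, by class) in each of the 11 libraries (columns, by time), with red higher and blue lower on the TMM scale. Most rows turn red at 6 h and are darkest in 24 h replicate 2, with a median of 1.196 against 0.76 in 24 h replicate 1. PSMB9, PSMD5, PSMG4 and PSME3IP1 are blue in all 8 hypoxic libraries. By library size alone the fitted 24 h change, which is not drawn here, turned to the other sign in 12 of the 40 genes called at 24 h.

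Promoters of 4 genes are shown because these genes moved in opposite directions while their promoters share a sequence. The 250 bases before each gene's RefSeq start are given 5′ to 3′ on the gene's strand, from RefSeq on GRCh38.p14, with each match to TGACNNNGC, the core of the antioxidant-type element bound by NFE2L1 and NFE2L2, in capitals. PSMB3 (window chr17:38752491-38752740, plus strand) and PSMD12 (window chr17:67366578-67366827, minus strand) rose in hypoxia, and PSMB9 (window chr6:32853942-32854191, plus strand) and PSMD5 (window chr9:120842923-120843172, minus strand) fell. In PSMB9 the match is on the other strand and reads as its reverse complement. The gene spans printed below are those of GENCODE, which begin further upstream for PSMB9, PSMD12 and PSMD5, so these windows lie partly or, for PSMB9, wholly inside them.
PSMB3: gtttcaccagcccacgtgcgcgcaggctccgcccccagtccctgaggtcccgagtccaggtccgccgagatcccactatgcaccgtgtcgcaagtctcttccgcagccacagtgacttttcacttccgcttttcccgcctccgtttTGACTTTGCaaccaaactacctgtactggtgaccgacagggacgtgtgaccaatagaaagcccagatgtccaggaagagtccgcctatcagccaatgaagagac
PSMD12: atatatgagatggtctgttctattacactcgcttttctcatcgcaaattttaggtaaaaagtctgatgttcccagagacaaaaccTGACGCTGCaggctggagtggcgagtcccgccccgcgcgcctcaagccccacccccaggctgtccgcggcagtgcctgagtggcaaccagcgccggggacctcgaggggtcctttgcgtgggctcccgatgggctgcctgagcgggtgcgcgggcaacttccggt
PSMB9: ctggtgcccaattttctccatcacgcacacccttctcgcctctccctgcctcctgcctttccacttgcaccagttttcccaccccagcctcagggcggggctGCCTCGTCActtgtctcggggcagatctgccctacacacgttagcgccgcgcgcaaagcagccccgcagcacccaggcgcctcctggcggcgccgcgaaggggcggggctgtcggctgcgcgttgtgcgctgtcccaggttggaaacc
PSMD5: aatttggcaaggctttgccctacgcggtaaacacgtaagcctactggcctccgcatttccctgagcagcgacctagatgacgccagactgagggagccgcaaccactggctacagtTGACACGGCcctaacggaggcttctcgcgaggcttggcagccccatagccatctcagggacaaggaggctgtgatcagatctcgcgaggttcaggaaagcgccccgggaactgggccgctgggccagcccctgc

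Windows were found for 42 of the 48 members, and 13 of these 42 genes hold TGACNNNGC on either strand. Counted by window, since some genes have several, it was in 24.5% of 53 member windows and in 10.9% of all 35116 promoter windows. The median log2 fold change of the 13 genes was 0.29, 0.44 and 0.94 at 6, 12 and 24 h, and that of the other 29 genes was 0.45, 0.47 and 1.03. ACGTG, a core of the hypoxia response element, was in 20.8% of member windows and 18.5% of all windows, and GCGTG, its other core, in 37.7% and 32.2%. CCAAT was in 41.5% of member windows and 32% of all windows. Both strands were searched for each, and ACGTG inside CACGTG matches on both. A match is a description of the letters in a window and not a site.

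Of the promoters shown, those of PSMB3, PSMB9 and PSMD5 hold ACGTG, those of PSMD12 and PSMB9 the other core, and those of PSMB3 and PSMB9 the CCAAT box. PSMB3 (beta subunit of the inner ring; ENSG00000277791, chromosome 17, 38752741 to 38764225, plus strand) measured 41.8, 37.9 and 42.9 CPM at 0 h, 63.4, 71.95 and 61.3 at 6 h, 92.7, 76.6 and 82.2 at 12 h, and 119 and 311 at 24 h. Its hypoxic libraries all lay above those of 0 h, and 24 h replicate 2 was far above the rest. The log2 fold changes of PSMB3 were 0.68, 1.04 and 2.40 for 6, 12 and 24 h (SE 0.26, 0.26 and 0.29; adjusted p = 0.0404, 0.00534 and 2.04e-05), with the largest value at 24 h among the 48 genes, and 1.52 at 24 h without 24 h replicate 2. PSMB3 was no longer called at 6 h without any one of 0 h replicate 1, 2 or 3, or 6 h replicate 1, 2 or 3, or 12 h replicate 1, 2 or 3 (log2 fold change 0.61 to 0.73, adjusted p = 0.0502 to 0.12).

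PSMD12, a scaffold subunit of the lid (ENSG00000197170, chromosome 17, 67337916 to 67366605, minus strand), measured 43.4, 41.5 and 41.6 CPM at 0 h, 117, 106 and 106 at 6 h, 119, 96.4 and 92.5 at 12 h, and 138 and 167 at 24 h. Already at 6 h each library was far above the highest at 0 h. Its log2 fold changes of 1.38, 1.28 and 1.85 for 6, 12 and 24 h (SE 0.14, 0.14 and 0.15; adjusted p = 8.11e-06, 1.87e-05 and 1.78e-06) included the largest at 6 h among the members, and the 24 h value was 1.69 without 24 h replicate 2.

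PSMB9, the interferon-inducible counterpart of PSMB6 (ENSG00000240065, chromosome 6, 32844136 to 32859851, plus strand), measured 9.905, 7.22 and 9.49 CPM at 0 h, 4.61, 6.55 and 4.49 at 6 h, 4.77, 4.03 and 4.86 at 12 h, and 4.58 and 6.26 at 24 h. All 8 hypoxic libraries lay below the lowest of 0 h, nearest in 6 h replicate 2. PSMB9 fell by log2 fold changes of -0.77, -0.96 and -0.72 for 6, 12 and 24 h (SE 0.21, 0.21 and 0.24; adjusted p = 0.00791, 0.00238 and 0.0212). Leaving out any one of 0 h replicate 1 or 3, or 24 h replicate 1 ended the 24 h call of PSMB9 (log2 fold change -0.67 to -0.56, adjusted p = 0.0595 to 0.0881). It was -0.98 at 24 h without 24 h replicate 2.

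PSMD5, a chaperone that holds ATPases of the base until they are assembled (ENSG00000095261, chromosome 9, 120815496 to 120842951, minus strand), measured 55.4, 63.7 and 56.8 CPM at 0 h, 30.6, 28.1 and 30.4 at 6 h, 31.4, 30.9 and 34.9 at 12 h, and 35.1 and 37.3 at 24 h. All 8 hypoxic libraries were below those of 0 h, with log2 fold changes of -0.98, -0.86 and -0.70 for 6, 12 and 24 h (SE 0.12, 0.12 and 0.14; adjusted p = 3.71e-05, 0.00013 and 0.00087).

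The 31 constitutive subunits of core, base and lid moved largely in one direction. Of these, 20, 23 and 28 were higher at 6, 12 and 24 h, with median log2 fold changes of 0.56, 0.57 and 1.28. Only PSMD4 and PSMD7 were lower at any time, both at 6 h. At 24 h, 27 of the 31 were higher without 24 h replicate 2, with a median of 0.84. By library size alone 8, 9 and 14 were higher and 2, 2 and 1 lower, with medians of 0.24, 0.10 and 0.28.

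**Figure D2:**
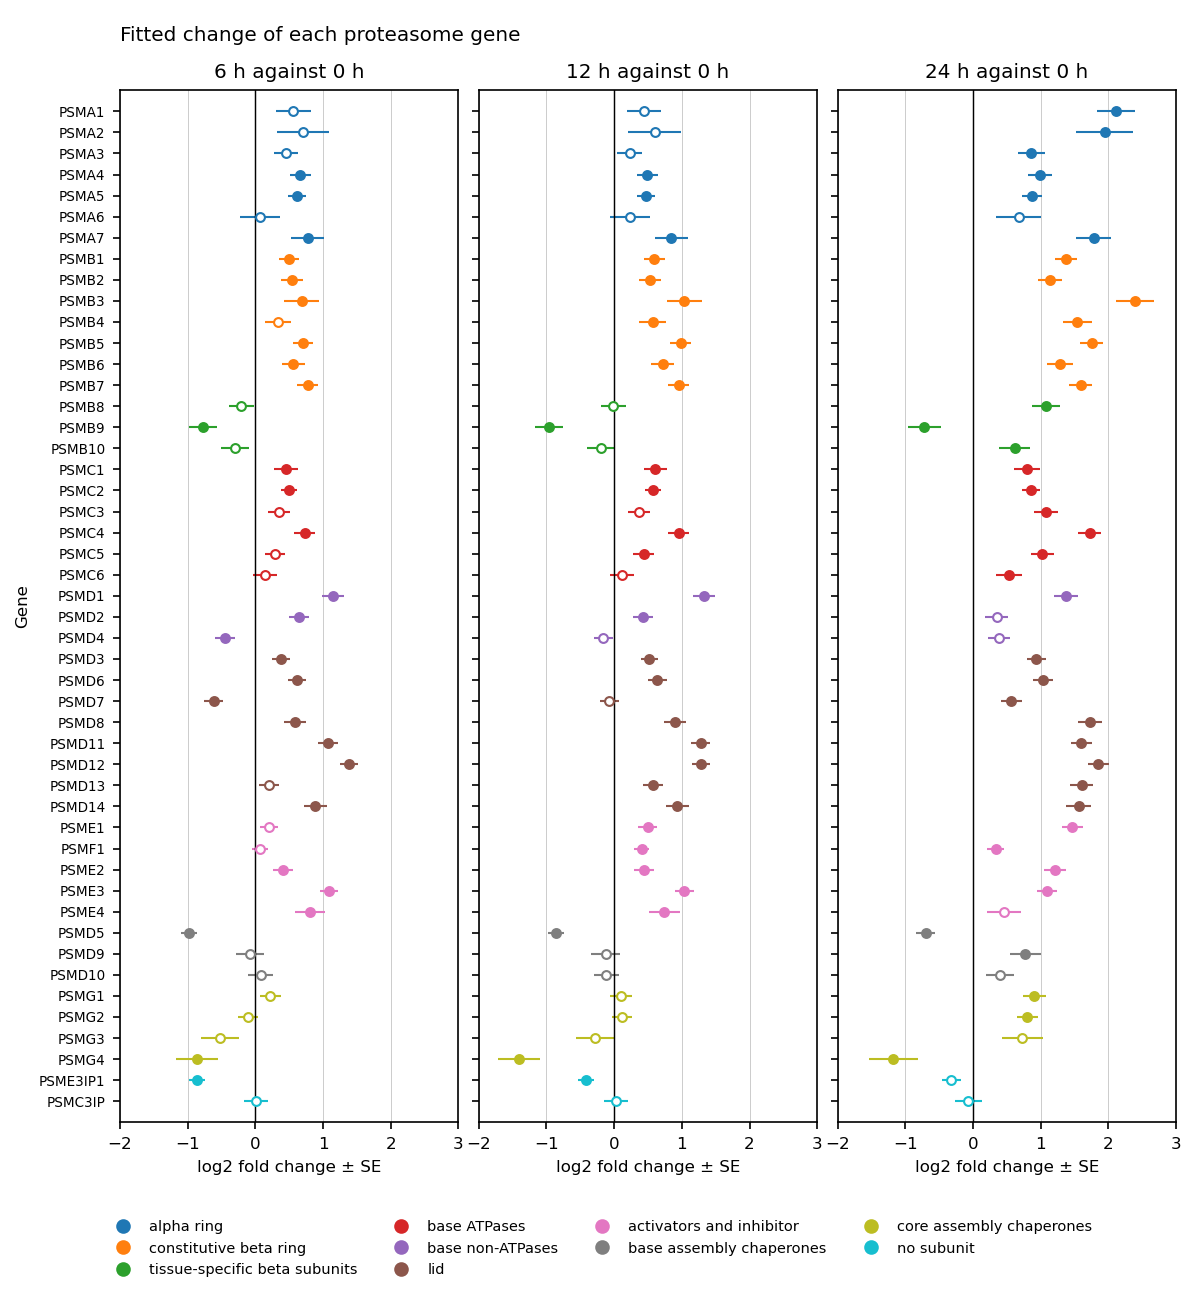
Fitted log2 fold change (horizontal axis) with its standard error for each of the 48 genes at 6, 12 and 24 h against 0 h, colored by class, with filled circles for an adjusted p under 0.05 in edgeR. The constitutive beta ring and the lid move furthest to the right, with medians of 1.54 and 1.58 at 24 h on the TMM scale (0.52 and 0.61 by library size alone), while the chaperones and the tissue-specific beta subunits scatter around or below 0 at 6 and 12 h.

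In the alpha ring, which forms the gate of the core, 3, 3 and 6 of 7 measured subunits were higher at 6, 12 and 24 h. The median log2 fold change was 0.61, 0.47 and 0.99, and by library size alone it was 0.29, -0.00084 and 0.030, turning below 0 at 12 h. At 24 h without 24 h replicate 2, 5 of 7 were higher, with a median of 0.71. PSMA7 (ENSG00000101182, chromosome 20, 62136733 to 62143440, minus strand), the most abundant alpha subunit per length, measured 171, 153 and 180.2 CPM at 0 h, 303, 298 and 259 at 6 h, 310.4, 284 and 312 at 12 h, and 345 and 812 at 24 h. Its log2 fold changes were 0.77, 0.84 and 1.78 for 6, 12 and 24 h (SE 0.24, 0.24 and 0.26; adjusted p = 0.0164, 0.0108 and 9.94e-05), and the 24 h libraries differed from each other by more than the 24 h replicate 1 value differed from 0 h. Without 24 h replicate 2 the 24 h value was 1.02. For PSMA7, the 6 h call did not hold without 0 h replicate 2 (log2 fold change 0.70, adjusted p = 0.0661).

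PSMA6, the only alpha subunit called at no time, measured 6.67, 5.41 and 5.98 CPM at 0 h, 2.902, 7.81 and 8.12 at 6 h, 6.96, 6.75 and 7.54 at 12 h, and 8.595 and 10.7 at 24 h. One library, 6 h replicate 1, lay below the 0 h range and the other hypoxic libraries above it, with log2 fold changes of 0.068, 0.23 and 0.68 for 6, 12 and 24 h (SE 0.29, 0.29 and 0.33; adjusted p = 0.857, 0.526 and 0.0904). The reads of PSMA6 are uncertain, because its 4 annotated pseudogenes took 242% of the counts of the gene itself. In 6 h replicate 1 the pseudogenes took 586% of the CPM of the gene, and the sum of gene and pseudogenes, 19.9 CPM, was above the 0 h sums of 16.0 to 17.7 CPM. The other alpha subunits, PSMA1 to PSMA5, had log2 fold changes that ran from 0.45 up to 0.70 (6 h), from 0.23 up to 0.60 (12 h) and from 0.86 up to 2.12 (24 h), and at 24 h from 0.39 up to 1.31 without 24 h replicate 2, when PSMA6 stood at 0.49. The 24 h call of PSMA2 was lost without 24 h replicate 2 (log2 fold change 0.71, adjusted p = 0.0787). PSMA4 was no longer called at 12 h without any one of 0 h replicate 1, 2 or 3, or 12 h replicate 1 (log2 fold change 0.40 to 0.50, adjusted p = 0.0542 to 0.0774).

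The constitutive beta ring moved in one direction. Of its 7 subunits 6 were higher at 6 h, all but PSMB4, and 7 at 12 and 24 h. PSMB4 had a log2 fold change of 0.33 (SE 0.19, adjusted p = 0.17) at 6 h. Leaving out any one of 0 h replicate 1, 2 or 3, or 12 h replicate 1, 2 or 3 ended the 12 h call of PSMB4 (log2 fold change 0.52 to 0.59, adjusted p = 0.0578 to 0.0926). For PSMB1, the 6 h call did not hold without 0 h replicate 2 (log2 fold change 0.46, adjusted p = 0.0577). In each of the 7 genes the 6, 12 and 24 h libraries lay above those of 0 h. The median log2 fold change was 0.56, 0.71 and 1.54, and 1.04 at 24 h without 24 h replicate 2, when all 7 stayed called. By library size alone the medians were 0.24, 0.24 and 0.52, with the same sign, and 2, 3 and 5 subunits were higher. PSMB2, a structural beta subunit and the one with the smallest average change in this ring, measured 79.3, 68.6 and 79.02 CPM at 0 h, 111, 119 and 99.9 at 6 h, 109, 110.2 and 108 at 12 h, and 128 and 204 at 24 h. It was higher in all 8 hypoxic libraries, with log2 fold changes of 0.54, 0.53 and 1.14 for 6, 12 and 24 h (SE 0.16, 0.16 and 0.18; adjusted p = 0.0146, 0.017 and 0.000173). The 6 h call of PSMB2 was lost without any one of 0 h replicate 2, or 6 h replicate 2 (log2 fold change 0.47 to 0.48, adjusted p = 0.0539 to 0.0689). PSMB2 was no longer called at 12 h without any one of 0 h replicate 2, or 12 h replicate 2 (log2 fold change 0.46 to 0.49, adjusted p = 0.0565 to 0.0771). Its 24 h value was 0.74 without 24 h replicate 2, and that of PSMB4 fell from 1.54 to 0.97.

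The constitutive catalytic subunits and their interferon-inducible counterparts had different time courses. PSMB5, which carries the chymotrypsin-like site (ENSG00000100804, chromosome 14, 23016543 to 23035230, minus strand), measured 74.5, 74.7 and 76.9 CPM at 0 h, 119.7, 123 and 124 at 6 h, 159, 140.3 and 147 at 12 h, and 202 and 306 at 24 h. The groups did not overlap, and each later time was above the earlier one in every library. The log2 fold changes of PSMB5 were 0.70, 0.98 and 1.75 for 6, 12 and 24 h (SE 0.15, 0.15 and 0.17; adjusted p = 0.00194, 0.000236 and 4.37e-06), and 1.40 at 24 h without 24 h replicate 2. Its counterpart PSMB8 (ENSG00000204264, chromosome 6, 32840717 to 32844679, minus strand) measured 37.4, 32.1 and 35.6 CPM at 0 h, 29.1, 32.05 and 29.8 at 6 h, 36.9, 31.8 and 35.5 at 12 h, and 52.5 and 96.2 at 24 h. At 6 and 12 h PSMB8 was within or just below the range of 0 h and not called, and at 24 h both libraries were above it, with log2 fold changes of -0.21, -0.014 and 1.08 for 6, 12 and 24 h (SE 0.19, 0.19 and 0.21; adjusted p = 0.361, 0.956 and 0.000635). The 24 h value of PSMB8 was 0.56 without 24 h replicate 2. Per exonic length, PSMB8 stood at 22.3, 19.1 and 20.6% of PSMB5 at 0 h, 10.8, 11.6 and 10.7% at 6 h, 10.3, 10.1 and 10.8% at 12 h and 11.6 and 13.99% at 24 h. This share was lower in each hypoxic library than in each 0 h library, and as a ratio within a library it does not depend on the scaling.

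PSMB6, which carries the caspase-like site, measured 53.98, 49.9 and 55.9 CPM at 0 h, 76.96, 82.1 and 77.1 at 6 h, 92.7, 83.1 and 86.5 at 12 h, and 95.7 and 164 at 24 h. All hypoxic libraries lay above 0 h, with log2 fold changes of 0.56, 0.71 and 1.28 for 6, 12 and 24 h (SE 0.17, 0.17 and 0.19; adjusted p = 0.0144, 0.00414 and 9.10e-05). Leaving out 0 h replicate 2 ended the 6 h call of PSMB6 (log2 fold change 0.51, adjusted p = 0.0609). At 24 h PSMB6 stood at 0.82 without 24 h replicate 2. Per length its counterpart PSMB9 stood at 7.95, 6.27 and 7.36% of PSMB6 at 0 h, 2.596, 3.46 and 2.52% at 6 h, 2.23, 2.101 and 2.44% at 12 h and 2.07 and 1.66% at 24 h. Here the constitutive gene rose while the inducible one fell, so the share went down from both sides.

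PSMB7, with the trypsin-like site, measured 121, 116 and 128 CPM at 0 h, 207, 206 and 209.8 at 6 h, 264, 213 and 229 at 12 h, and 302 and 432 at 24 h. It rose in each hypoxic library, with log2 fold changes of 0.77, 0.95 and 1.59 for 6, 12 and 24 h (SE 0.15, 0.15 and 0.17; adjusted p = 0.00112, 0.000319 and 8.65e-06), and 1.29 at 24 h without 24 h replicate 2. Its counterpart PSMB10 measured 11.9, 9.96 and 9.78 CPM at 0 h, 7.27, 10.4 and 8.01 at 6 h, 8.42, 10.3 and 9.11 at 12 h, and 12.2 and 20.4 at 24 h. PSMB10 overlapped the 0 h range at 6 and 12 h and was above it at 24 h, by little in 24 h replicate 1, and its log2 fold changes were -0.30, -0.19 and 0.62 for 6, 12 and 24 h (SE 0.21, 0.21 and 0.23; adjusted p = 0.236, 0.467 and 0.0322). For PSMB10, the 24 h call did not hold without any one of 0 h replicate 2 or 3, or 12 h replicate 2, or 24 h replicate 2 (log2 fold change 0.19 to 0.57, adjusted p = 0.0545 to 0.496). By library size alone its 24 h value was -0.37. As a share of PSMB7 per length, PSMB10 stood at 10.8, 9.45 and 8.44% at 0 h, 3.87, 5.57 and 4.2% at 6 h, 3.505, 5.3 and 4.38% at 12 h and 4.44 and 5.18% at 24 h. In all 3 pairs each hypoxic share was thus below each 0 h share.

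**Figure D3:**
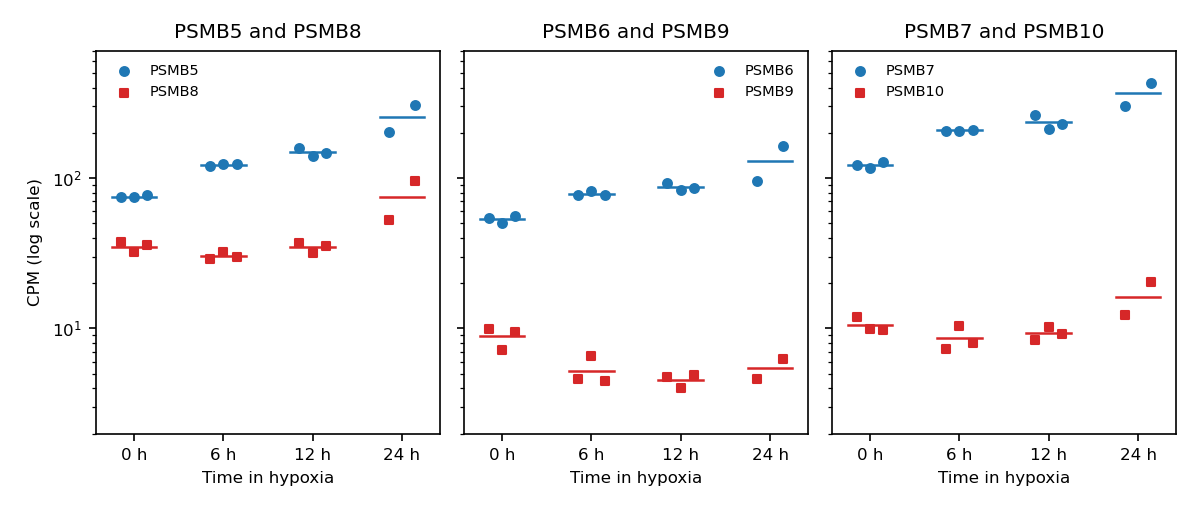
CPM on a log axis of the 3 constitutive catalytic subunits (blue circles) and their interferon-inducible counterparts (red squares) in each library by time, with the group mean as a line. The blue means climb from 0 to 24 h in every panel, the PSMB9 libraries of 6, 12 and 24 h lie below those of 0 h, and PSMB8 and PSMB10 are above 0 h at 24 h on the TMM scale (PSMB10 below it by library size alone).

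Of the 6 ATPases of the base, 3, 4 and 6 were higher at 6, 12 and 24 h, with medians of 0.40, 0.50 and 0.94. By library size alone these medians were 0.082, 0.035 and 0.0019, and the called changes of PSMC5 at 12 h and of PSMC1, PSMC2 and PSMC6 at 24 h turned below 0. At 24 h without 24 h replicate 2, 5 of 6 were higher, with a median of 0.78, and the values were 0.71 for PSMC3, 1.37 for PSMC4 and 0.67 for PSMC5. PSMC4 (ENSG00000013275, chromosome 19, 39971165 to 39981764, plus strand) changed most in this ring and measured 44.8, 47.3 and 50.3 CPM at 0 h, 78.7, 85.1 and 72.5 at 6 h, 90.6, 91.1 and 93.6 at 12 h, and 124 and 190.5 at 24 h. The groups of 0, 6, 12 and 24 h did not overlap, with log2 fold changes of 0.73, 0.95 and 1.73 for 6, 12 and 24 h (SE 0.15, 0.15 and 0.17; adjusted p = 0.00172, 0.000345 and 5.57e-06). PSMC6, with the smallest change, measured 54.5, 52.8 and 54.03 CPM at 0 h, 64.7, 47.8 and 66.2 at 6 h, 67.7, 52.7 and 54.96 at 12 h, and 62.5 and 93.7 at 24 h. Its 6 and 12 h libraries overlapped those of 0 h, and its log2 fold changes were 0.15, 0.12 and 0.54 for 6, 12 and 24 h (SE 0.18, 0.18 and 0.20; adjusted p = 0.498, 0.596 and 0.0308). The 24 h call of PSMC6 was lost without any one of 0 h replicate 1, 2 or 3, or 12 h replicate 2, or 24 h replicate 2 (log2 fold change 0.20 to 0.54, adjusted p = 0.0539 to 0.376). PSMC5 was no longer called at 12 h without any one of 0 h replicate 1, 2 or 3, or 12 h replicate 1, 2 or 3 (log2 fold change 0.41 to 0.44, adjusted p = 0.0618 to 0.09).

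The scaffold and receptor subunits of the base differed from each other. PSMD1, a large scaffold that binds substrate-handling factors (ENSG00000173692, chromosome 2, 231056845 to 231173116, plus strand), measured 46.6, 44.4 and 49.7 CPM at 0 h, 124, 101 and 86.2 at 6 h, 119.6, 116 and 116 at 12 h, and 142 and 101 at 24 h. It was above 0 h in all 8 hypoxic libraries, with log2 fold changes of 1.15, 1.32 and 1.37 for 6, 12 and 24 h (SE 0.16, 0.16 and 0.18; adjusted p = 0.000104, 5.12e-05 and 3.75e-05), and 24 h replicate 2 was lower than replicate 1. PSMD4, a ubiquitin receptor (ENSG00000159352, chromosome 1, 151254709 to 151267479, plus strand), measured 69.6, 63.2 and 68.9 CPM at 0 h, 46.4, 48.03 and 52.6 at 6 h, 65.8, 53.8 and 61.3 at 12 h, and 72.9 and 103 at 24 h. The 6 h libraries lay below those of 0 h and the 24 h libraries above, with log2 fold changes of -0.46, -0.16 and 0.39 for 6, 12 and 24 h (SE 0.15, 0.15 and 0.16; adjusted p = 0.0202, 0.389 and 0.0565). Leaving out any one of 0 h replicate 1 or 3, or 6 h replicate 1 or 2 ended the 6 h call of PSMD4 (log2 fold change -0.45 to -0.41, adjusted p = 0.0597 to 0.0646). PSMD2, the other scaffold, had log2 fold changes of 0.64, 0.43 and 0.35 for 6, 12 and 24 h (SE 0.15, 0.15 and 0.16; adjusted p = 0.00309, 0.0285 and 0.0813). For PSMD2, the 12 h call did not hold without any one of 0 h replicate 1, 2 or 3, or 12 h replicate 2 or 3 (log2 fold change 0.33 to 0.47, adjusted p = 0.0551 to 0.131). Leaving out 24 h replicate 2 gave 24 h values of 1.58 for PSMD1, 0.48 for PSMD2 and 0.096 for PSMD4.

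The lid, which processes the ubiquitin chain, rose with the beta ring. In it 6, 7 and 8 of its 8 subunits were higher at 6, 12 and 24 h. The medians were 0.60, 0.77 and 1.58, and by library size alone 0.28, 0.30 and 0.61, with 3, 4 and 5 subunits higher. All 8 stayed called at 24 h without 24 h replicate 2, with a median of 1.25, PSMD14 at 1.22 and PSMD7 at 0.56. PSMD14, the deubiquitinase that cuts the chain off the substrate (ENSG00000115233, chromosome 2, 161308425 to 161411717, plus strand), measured 50.9, 43.6 and 49.6 CPM at 0 h, 103, 83.8 and 79.3 at 6 h, 100.1, 84.5 and 90.99 at 12 h, and 113 and 171 at 24 h. The hypoxic libraries were all above those of 0 h, with log2 fold changes of 0.89, 0.94 and 1.57 for 6, 12 and 24 h (SE 0.17, 0.17 and 0.19; adjusted p = 0.000855, 0.000701 and 1.93e-05). PSMD7, the inactive partner of PSMD14, measured 37.7, 34.3 and 36.9 CPM at 0 h, 28.6, 20.6 and 21.9 at 6 h, 35.4, 34.4 and 34.1 at 12 h, and 54.4 and 53.3 at 24 h. PSMD7 was below 0 h in every 6 h library, overlapped it at 12 h and was above it at 24 h, with log2 fold changes of -0.62, -0.07 and 0.57 for 6, 12 and 24 h (SE 0.14, 0.14 and 0.15; adjusted p = 0.00256, 0.693 and 0.00636). Scaled by library size alone PSMD7 was still below 0 h at 24 h, at -0.34. The 6 h call of PSMD3 was lost without any one of 0 h replicate 1, 2 or 3, or 6 h replicate 2 or 3, or 12 h replicate 2 (log2 fold change 0.31 to 0.41, adjusted p = 0.0521 to 0.118).

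Of the activators, PSME1 and PSME2 form the interferon-inducible cap of the core, PSME3 a nuclear one, and PSME4 a large single-chain one, while PSMF1 encodes an inhibitor of the core. Of these 5 genes 3, 5 and 4 were higher at 6, 12 and 24 h, with medians of 0.41, 0.49 and 1.10 (0.086, 0.025 and 0.17 by library size alone, with PSME2 and PSMF1 turned below 0 at 12 h and PSMF1 at 24 h). At 24 h without 24 h replicate 2, 4 of 5 were higher, with a median of 0.91, and PSME1 stood at 1.22, PSME2 at 0.86 and PSME3 at 1.02. PSME1 (ENSG00000092010, chromosome 14, 24136163 to 24138967, plus strand) measured 99.3, 89.4 and 98.7 CPM at 0 h, 105, 114 and 112 at 6 h, 142, 132 and 131 at 12 h, and 227 and 305 at 24 h. Its increase came late, with log2 fold changes of 0.20, 0.49 and 1.47 for 6, 12 and 24 h (SE 0.14, 0.14 and 0.15; adjusted p = 0.221, 0.00922 and 6.90e-06). PSME2, its partner, measured 64.5, 57.5 and 57.2 CPM at 0 h, 78.9, 80.99 and 77.7 at 6 h, 78.9, 81.1 and 83.8 at 12 h, and 110.3 and 167 at 24 h, and its log2 fold changes were 0.41, 0.44 and 1.21 for 6, 12 and 24 h (SE 0.15, 0.15 and 0.16; adjusted p = 0.0358, 0.0251 and 5.16e-05). Both libraries at 24 h were above all earlier ones in both genes. Per length PSME2 stood at 32.2, 31.9 and 28.8% of PSME1 at 0 h, 37.4, 35.1 and 34.4% at 6 h, 27.6, 30.5 and 31.6% at 12 h and 24.1 and 27.1% at 24 h, a range of 24.1 to 37.4%. PSME2 was no longer called at 6 h without any one of 0 h replicate 1, 2 or 3, or 6 h replicate 1, 2 or 3, or 12 h replicate 2 or 3 (log2 fold change 0.37 to 0.46, adjusted p = 0.053 to 0.121). Leaving out any one of 0 h replicate 2 or 3, or 12 h replicate 2 or 3 ended the 12 h call of PSME2 (log2 fold change 0.40 to 0.42, adjusted p = 0.0755 to 0.0939).

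PSME3 (ENSG00000131467, chromosome 17, 42824385 to 42843760, plus strand) measured 62.7, 60.9 and 66.2 CPM at 0 h, 149, 141 and 113 at 6 h, 119.8, 133 and 136 at 12 h, and 130.2 and 140.2 at 24 h. Its 8 hypoxic libraries were all above 0 h, and those of 6, 12 and 24 h overlapped each other, with log2 fold changes of 1.08, 1.04 and 1.10 for 6, 12 and 24 h (SE 0.14, 0.14 and 0.15; adjusted p = 3.94e-05, 7.37e-05 and 5.09e-05), and the test of 24 h against 6 h gave 0.011 (SE 0.15, adjusted p = 0.961). PSME4 measured 36.4, 39.8 and 34.3 CPM at 0 h, 70.03, 57.2 and 66.2 at 6 h, 66.8, 57.2 and 60.8 at 12 h, and 70 and 31.3 at 24 h. It was above 0 h in all 6 h and 12 h libraries, and at 24 h replicate 1 was above and replicate 2 below the 0 h range. PSME4 had log2 fold changes of 0.81, 0.74 and 0.46 for 6, 12 and 24 h (SE 0.23, 0.23 and 0.25; adjusted p = 0.00933, 0.0154 and 0.125), and at 24 h -0.29 without replicate 1 and 0.91 without replicate 2. For PSME4, the 12 h call did not hold without any one of 0 h replicate 3, or 12 h replicate 1 (log2 fold change 0.68 to 0.69, adjusted p = 0.0516 to 0.0597).

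PSMF1 measured 71.6, 70.9 and 74.7 CPM at 0 h, 71.4, 74.5 and 82.3 at 6 h, 99.6, 89.5 and 98.8 at 12 h, and 91.2 and 91.4 at 24 h. Its 12 and 24 h libraries were all above those of 0 h and its 6 h libraries overlapped them, with log2 fold changes of 0.071, 0.41 and 0.33 for 6, 12 and 24 h (SE 0.12, 0.12 and 0.13; adjusted p = 0.63, 0.0117 and 0.0395). The 12 h call of PSMF1 was lost without 0 h replicate 1 (log2 fold change 0.39, adjusted p = 0.0504). PSMF1 was no longer called at 24 h without any one of 0 h replicate 1, 2 or 3, or 12 h replicate 2 or 3, or 24 h replicate 1 or 2 (log2 fold change 0.28 to 0.35, adjusted p = 0.0542 to 0.107).

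Assembly chaperones differed among themselves. Among those of the base, PSMD5 was lower at each time, PSMD9 was higher at 24 h, and PSMD10, also known as gankyrin, was not called. PSMD9 measured 4.57, 5.25 and 5.07 CPM at 0 h, 4.78, 4.47 and 4.87 at 6 h, 4.902, 4.38 and 4.36 at 12 h, and 6.03 and 11 at 24 h. It stayed within or near the 0 h range until 12 h, and 24 h replicate 2 was the highest, with log2 fold changes of -0.075, -0.13 and 0.77 for 6, 12 and 24 h (SE 0.21, 0.21 and 0.23; adjusted p = 0.777, 0.633 and 0.0112), and 0.26 at 24 h without that library. Leaving out 24 h replicate 2 ended the 24 h call of PSMD9 (log2 fold change 0.26, adjusted p = 0.26). PSMD10 (ENSG00000101843, chromosome X, 108084207 to 108091549, minus strand) measured 21.2, 19.7 and 21.7 CPM at 0 h, 21.1, 20.7 and 24.4 at 6 h, 20.1, 19.2 and 18.4 at 12 h, and 19.7 and 35.4 at 24 h. Apart from 24 h replicate 2 all libraries lay between 18.4 and 24.4 CPM, with log2 fold changes of 0.081, -0.12 and 0.40 for 6, 12 and 24 h (SE 0.18, 0.18 and 0.21; adjusted p = 0.729, 0.612 and 0.11). Leaving out 24 h replicate 2 gave 24 h values of -0.10 for PSMD10 and -0.76 for PSMD5.

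Among the chaperones of the core, PSMG1 and PSMG2 work as one pair and PSMG3 and PSMG4 as another. PSMG4 (ENSG00000180822, chromosome 6, 3231403 to 3303373, plus strand) measured 11.7, 9.93 and 11.2 CPM at 0 h, 6.76, 6.29 and 5.09 at 6 h, 3.96, 4.68 and 3.74 at 12 h, and 2.27 and 7.57 at 24 h. All 8 hypoxic libraries were below 0 h, with log2 fold changes of -0.86, -1.41 and -1.17 for 6, 12 and 24 h (SE 0.31, 0.31 and 0.36; adjusted p = 0.0311, 0.00263 and 0.0137), and replicate 2 at 24 h was above and replicate 1 below every 6 h and 12 h library. At 24 h PSMG4 stood at -0.59 without replicate 1 and -2.29 without replicate 2. For PSMG4, the 6 h call did not hold without any one of 0 h replicate 1, 2 or 3, or 6 h replicate 1, 2 or 3 (log2 fold change -0.95 to -0.74, adjusted p = 0.0516 to 0.105). PSMG1 measured 32.1, 30.7 and 30.8 CPM at 0 h, 40.5, 38.3 and 30.3 at 6 h, 35.2, 32.2 and 33.3 at 12 h, and 47.4 and 69.9 at 24 h. It overlapped 0 h at 6 h and lay above it at 12 and 24 h, with log2 fold changes of 0.22, 0.10 and 0.91 for 6, 12 and 24 h (SE 0.16, 0.16 and 0.18; adjusted p = 0.262, 0.606 and 0.00075). PSMG2 was higher at 24 h, with a log2 fold change of 0.80 (SE 0.16, adjusted p = 0.000841) and PSMG3 was not called against 0 h, with a 24 h value of 1.26 without replicate 1 and -0.28 without replicate 2. The 24 h values of PSMG1 and PSMG2 were 0.58 and 0.49 without replicate 2.

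The genes that share the name without being subunits did not rise. PSME3IP1 measured 63.9, 59.4 and 62.03 CPM at 0 h, 37.4, 31.2 and 33.6 at 6 h, 48, 43.9 and 47.3 at 12 h, and 46.6 and 52.4 at 24 h. It was below 0 h in all 8 hypoxic libraries and lowest at 6 h, with log2 fold changes of -0.86, -0.41 and -0.32 for 6, 12 and 24 h (SE 0.12, 0.12 and 0.14; adjusted p = 0.000102, 0.0131 and 0.0585). The 12 h call of PSME3IP1 was lost without 0 h replicate 1 (log2 fold change -0.40, adjusted p = 0.0508). PSMC3IP measured 7.504, 5.94 and 6.85 CPM at 0 h, 7.48, 6.81 and 6.16 at 6 h, 6.36, 7.404 and 6.94 at 12 h, and 7.44 and 5.45 at 24 h. Its groups overlapped at every time, with log2 fold changes of 0.0075, 0.028 and -0.067 for 6, 12 and 24 h (SE 0.17, 0.17 and 0.20; adjusted p = 0.975, 0.904 and 0.785). Leaving out 24 h replicate 2 gave 24 h values of 0.12 for PSMC3IP and -0.43 for PSME3IP1.

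The test of 24 h against 6 h asks whether the change went on growing in hypoxia and does not use the 0 h libraries in its contrast. In it 32 of 48 genes were higher (66.7%), beside 22.1% of all tested genes, with a median log2 fold change of 0.68 against -0.0010 over all tested genes. None of the 48 was lower in edgeR, limma-voom or DESeq2, and at an unadjusted p under 0.05 the number lower was also 0 in each, beside 20.3% of all tested genes called lower. All 7 constitutive beta subunits and all 8 lid subunits were higher, with medians of 0.88 and 0.62 (0.22 and -0.022 by library size alone, when the lid turned), but 3 of 7 alpha subunits and 2 of 5 activators. The alpha subunits and the activators had medians of 0.61 and 0.26. Without 24 h replicate 2 the medians were 0.56 (beta ring), 0.39 (lid), 0.10 (alpha ring) and 0.26 (activators), so the size in the rings and the lid depended on that library. Not all calls in the rings and the lid held without it.

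The count depended on the 24 h libraries. Without 24 h replicate 2, 22 genes were higher and 1, PSMG4, was lower than at 6 h, with a median of 0.37. Without 24 h replicate 1, 36 were higher and 2, PSME4 and PSMD2, were lower, with a median of 0.92. Fitting only the 6 h and 24 h groups left 13 genes higher, and limma-voom with sample quality weights 14. The number of all tested genes called higher was also smaller, 1933 and 1455 against 4423 in the main fit. Of the 48 genes 41 read higher in 24 h replicate 2 than in replicate 1, and the median ratio between them was 1.46, against 1.01 over all tested genes. The ratio was 0.979 to 1.57 in the lid and 1.43 to 2.62 in the constitutive beta ring, and 0.447 for PSME4 and 0.606 for PSMC1. What this library's mitochondrial share and TMM factor contribute to its values was not tested.

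**Figure D4:**
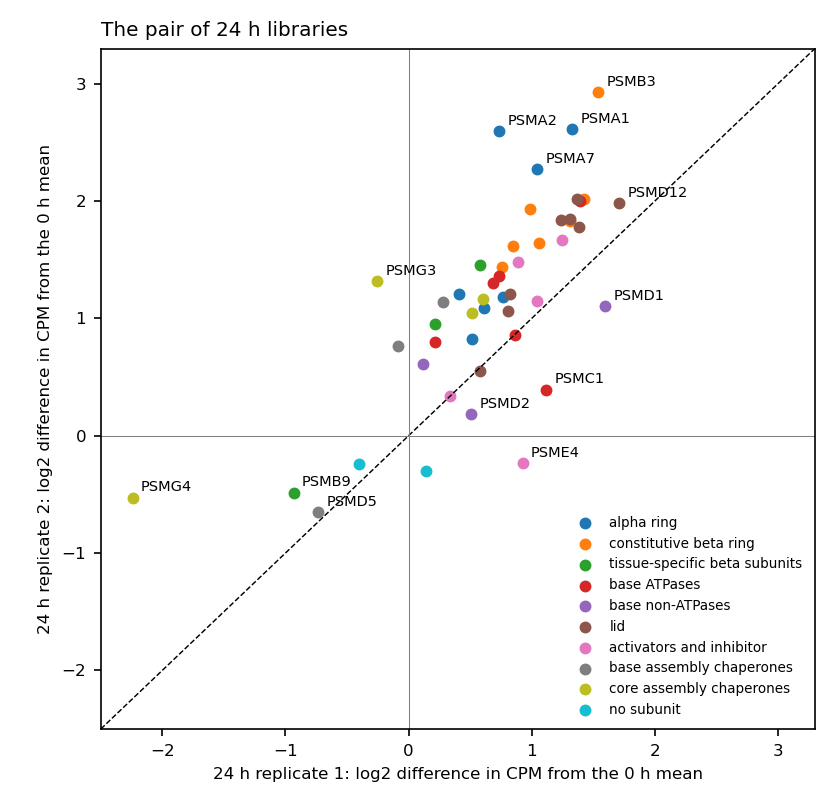
Log2 difference in CPM from the 0 h mean of each gene in 24 h replicate 1 (horizontal) and 24 h replicate 2 (vertical), on the TMM scale, colored by class, with equal values on the dashed line. Of the 48 points 41 lie above the line, with PSMB3 at 1.54 and 2.93, while PSME4 (0.93 and -0.23) and PSMC1 lie below it.

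Levels varied widely between genes. Per kilobase of exonic length, the mean at 0 h ran from 0.234 CPM for PSMA2 to 95.9 for PSMA7 in the alpha ring, 411 times apart, and from 16.7 for PSMB2 to 68.0 for PSMB7 in the constitutive beta ring, 4.07 times apart. In the base it ran from 2.97 (PSMD1) to 29.9 (PSMD2) and in the lid from 2.22 (PSMD6) to 18.8 (PSMD8). At 24 h the ranges were 0.909 to 330.2 CPM per kilobase in the alpha ring and 36.7 to 205 in the beta ring. The exonic length merges all annotated transcripts, so it is longer than most single transcripts. PSMA2 had 1199 counts over all libraries and shares 17.25% of its exonic bases with an unnamed gene on the same strand. Reads on such shared bases may not have been counted, and how far the range in the alpha ring reflects expression was not tested.

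Reads of some members can be shared with other genes. The 44 annotated pseudogenes of the members took 2.80% as many counts as the members, most of them at PSMC1, whose 13 pseudogenes took 246% of its own counts, and at PSMA6. PSMC1 measured 24.7, 20.6 and 23.3 CPM at 0 h, 32.5, 30.5 and 31.02 at 6 h, 37.9, 32.04 and 34.9 at 12 h, and 49.5 and 30.02 at 24 h, and its pseudogenes together 51.4 to 55.2 CPM at 0 h, up to 80.1 at 6 h, up to 100.7 at 12 h, and 114 and 116 at 24 h. Gene and pseudogenes of PSMC1 were thus both above 0 h in every hypoxic library. PSMC1 was no longer called at 6 h without any one of 0 h replicate 1, 2 or 3, or 6 h replicate 1, 2 or 3, or 12 h replicate 2 or 3 (log2 fold change 0.38 to 0.50, adjusted p = 0.0578 to 0.146). Leaving out 0 h replicate 2 ended the 12 h call of PSMC1 (log2 fold change 0.53, adjusted p = 0.0517). For PSMC1, the 24 h call did not hold without 24 h replicate 1 (log2 fold change 0.33, adjusted p = 0.0611). PSMC1 also shares 76.2% of its exonic bases with NRDE2 on the other strand, and since the strand setting of the counting is not given in the sources used here, reads of the 2 genes may not have been told apart. For the same reason PSMB8 and PSMB9, whose exons overlap on opposite strands (17.3% of PSMB8, 4.16% of PSMB9), are uncertain. So are PSMC5 (15.3% with FTSJ3), PSMD7 (31.2% with an unnamed gene), PSMC3IP (30.3% with MLX) and PSMG4 (15% with SLC22A23 and TUBB2B). The share of bases does not bound this, since the other gene can have more counts. MLX took 781% as many counts as PSMC3IP, SLC22A23 365% and TUBB2B 701% as many as PSMG4. PSMB8 took 606% as many as PSMB9, and PSMB9 16.5% as many as PSMB8. FTSJ3 took 101% as many as PSMC5, and the unnamed gene 5.25% as many as PSMD7. PSMB10 shares 39.4% of its exonic bases with an unnamed gene on the same strand, which took 7.52% as many counts, and there the strand setting cannot separate them. The same holds for PSMA1 (26.7%), PSMA2 (17.25%), PSMD9 (14.9%) and PSMA6 (14.1%), each with an unnamed gene. In the other members such overlap was at most 5.21%. Whether reads on shared bases were left uncounted was not tested.

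Genes that work with the proteasome moved in several directions. Of 40 such genes in 7 lists, 16, 13 and 14 were higher and 6, 6 and 10 lower at 6, 12 and 24 h, with medians of 0.20, 0.097 and 0.046. Among all tested genes 25.1%, 24.2% and 29.9% were higher and 27.7%, 27.1% and 31.3% lower, so the 24 h counts are near those shares. By library size alone 5, 5 and 6 were higher and 7, 16 and 26 lower, and the called changes of SEM1 and USP14 at 12 h and of USP14, VCP, UBB and UBA1 at 24 h turned below 0. Subunits of the regulatory particle outside the naming rule were also higher. ADRM1, a ubiquitin receptor, had log2 fold changes of 0.50, 0.82 and 1.15 and SEM1, the smallest lid subunit, 0.48, 0.45 and 1.34, both called at each time. POMP, the chaperone that matures the beta ring, measured 35.3, 30.8 and 32.2 CPM at 0 h, 79.9, 74.2 and 74.6 at 6 h, 81.4, 63.2 and 66.3 at 12 h, and 112 and 153 at 24 h. It was higher in all hypoxic libraries, with log2 fold changes of 1.22, 1.10 and 2.02 for 6, 12 and 24 h (SE 0.15, 0.15 and 0.17; adjusted p = 3.80e-05, 0.000104 and 1.97e-06). Of the assembly, storage and import list TXNL1, a thioredoxin bound to the lid, was also higher at each time and PAAF1, a factor that binds base ATPases, lower (-1.70, -1.42 and -1.22).

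Among the regulators of proteasome genes, NFE2L1 measured 335, 356 and 339.7 CPM at 0 h, 300.5, 275 and 309.8 at 6 h, 231, 278 and 270.4 at 12 h, and 145 and 111 at 24 h. Both 24 h libraries were the lowest of all, with log2 fold changes of -0.22, -0.40 and -1.42 for 6, 12 and 24 h (SE 0.14, 0.14 and 0.17; adjusted p = 0.215, 0.0324 and 1.98e-05). NFE2L3, a relative of NFE2L1, was higher at each time (1.67, 1.201 and 1.83), NFE2L2 and the protease DDI2, which cuts the NFE2L1 protein, were higher at 6 h, and DDI2 was lower at 24 h, with a log2 fold change of -0.73 (SE 0.25, adjusted p = 0.0223). NGLY1, the glycanase that edits NFE2L1, was lower at 6 h, with a log2 fold change of -0.92 (SE 0.20, adjusted p = 0.0018).

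Among the ubiquitin genes, UBB was higher at each time (0.61, 0.65 and 0.70) and RPS27A at 12 and 24 h, and UBA1, an activating enzyme, was higher at 24 h. Of the 4 deubiquitinases and ligases at the proteasome, USP14 was higher at each time (0.52, 0.37 and 0.61), UBE3C was higher and UCHL5 lower at 6 h. In the list of 10 shuttle and delivery factors, 4, 3 and 3 were higher and 2, 2 and 3 lower, which at 24 h is close to the 29.9% and 31.3% of all tested genes, among them VCP, the unfolding ATPase (higher, 0.78, 0.58 and 0.78), and NPLOC4, a cofactor of VCP (lower, -0.61, -0.61 and -1.12).

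Of the 7 genes of antigen processing and its regulators, 1, 2 and 4 were lower at 6, 12 and 24 h, beside 27.7%, 27.1% and 31.3% of all tested genes. NLRC5, the transactivator of class I genes that also acts on PSMB9, measured 25.6, 25.03 and 26.4 CPM at 0 h, 6.76, 6.51 and 9.96 at 6 h, 6.896, 6.87 and 7.28 at 12 h, and 8.94 and 4.36 at 24 h. All hypoxic libraries were far below those of 0 h, with log2 fold changes of -1.72, -1.87 and -1.94 for 6, 12 and 24 h (SE 0.23, 0.23 and 0.28; adjusted p = 7.20e-05, 5.59e-05 and 7.72e-05). IRF1 was lower at 12 and 24 h with log2 fold changes of -0.87 (SE 0.29, adjusted p = 0.0229) and -1.05 (SE 0.34, adjusted p = 0.0159), and TAP2 and TAPBP at 24 h. TAP1, which shares its promoter with PSMB9, was not called, with -0.009, -0.14 and 0.0091 at the 3 times.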

How the data were processed

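Per the labels and the study's methods, the authors sequenced stranded, single-end RNA libraries, trimmed reads with Trimmomatic 0.39, aligned them with STAR to GRCh38 (Ensembl 99) and deposited raw counts per gene from featureCounts. The strand setting and the handling of multi-mapping reads are not given in the sources used here. From these counts, genes were kept by filterByExpr (minimum count 10, total 15), scaled by TMM and tested in edgeR 4.0.16 (R 4.3.3) with the quasi-likelihood test on time, in one fit of all 11 libraries, with p-values adjusted over 19981 genes. A call is an adjusted p under 0.05. The standard error is the absolute log2 fold change divided by the square root of F, and the biological coefficient of variation was 19.6%. CPM are TMM-scaled, and each gene's position and merged exonic length come from GENCODE 44, which held 60357 of 60676 gene identifiers. Total counts per library were 27496009 to 49488345. An exact permutation test of 3 against 3 libraries cannot go below 0.1, so none was run. The members and lists were chosen with earlier results of these data known. Named with every library's value were the catalytic pairs, the members of each class with the highest and lowest average change, PSME1 to PSME4, PSMF1, PSMD10 and PSMD14, besides PSMC1, POMP, NFE2L1 and NLRC5, chosen after their values were seen. The tests were also run on simulated counts in which a small set of genes was changed at 6 h alone. That simulation cannot show how the results depend on the TMM scale. Alternatives were limma-voom (limma 3.58.1) with and without sample quality weights, DESeq2 1.42.0, median-of-ratios size factors, library size alone, other filters, a replicate block, an offset fitted to length and GC content of genes, a fit of only the groups compared, and leaving out each library. The third library at 24 h was not analysed here, and some genes of the lists are not reported here by name.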

Additional observations from a re-analysis of the deposited data

Results flagged for a closer look

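For 18 of the named genes the effect at 24 h differed from that at 6 h by edgeR's test of 24 h against 6 h, on the log2 scale. Among all tested genes 22.1% were higher and 20.3% lower in this test. Some genes were named for the highest or lowest average change in their class, which includes the 24 h value. Their count is therefore a description only. In the core the difference was 1.011 for PSMA7, 0.5948 for PSMB2, 1.714 for PSMB3, 1.054 for PSMB5, 0.7207 for PSMB6, 0.8224 for PSMB7, 1.293 for PSMB8 and 0.9223 for PSMB10. In the regulatory particle it was 0.9988 for PSMC4, 0.8408 for PSMD4, 1.186 for PSMD7, 0.471 for PSMD12 and 0.6798 for PSMD14. Among activators and chaperones it was 1.266 for PSME1, 0.806 for PSME2, 0.8482 for PSMD9 and 0.689 for PSMG1, and it was 0.5391 for PSME3IP1, which had fallen at 6 h. Without 24 h replicate 2 the call was lost for PSMA7 (0.27), PSMB2 (0.22), PSMB6 (0.28), PSMB10 (0.51), PSMD12 (0.33), PSMD14 (0.35), PSMD9 (0.35) and PSMG1 (0.39). Groups of 3 and 2 libraries are too small for a test of single outlying libraries.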

How the results depend on the processing

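Scaling by library size alone changed the results most. It left 9, 10, 15 and 9 members higher and 10, 12, 8 and 3 lower at 6, 12 and 24 h against 0 h and at 24 h against 6 h, with medians of 0.1097, 0.008569, 0.03739 and 0.02673. Over all tested genes it gave 2713, 2116, 2222 and 1269 higher and 7130, 8444, 11305 and 7373 lower. Under it the value turned at 12 h for PSME2 (-0.02486), PSMF1 (-0.0649), PSMA5 (-0.0008445), PSMC5 (-0.0342), PSMD2 (-0.03832) and PSMG2 (-0.3559). At 24 h it turned for PSMF1 (-0.5796), PSMA3 (-0.1395), PSMA5 (-0.09598), PSMC1 (-0.04104), PSMC2 (-0.05309), PSMC6 (-0.443), PSMD10 (-0.6079), PSMD9 (-0.231), PSMD4 (-0.5839), PSMG1 (-0.06669), PSMG2 (-0.1696), PSMD3 (-0.002637), PSMD7 (-0.3428) and PSMB10 (-0.3737). For 24 h against 6 h it turned for PSME3 (-0.5937), PSMC2 (-0.2357), PSMB2 (-0.07372), PSMD11 (-0.1115), PSMD12 (-0.1537), PSMD3 (-0.0627), PSMD6 (-0.218) and PSME3IP1 (-0.07442). Sample quality weights in limma-voom gave 7 lower at 12 h, 1 lower at 24 h and 14 higher at 24 h against 6 h, where fitting only the groups compared gave 13. Over all tested genes the weights gave 7766 lower at 12 h, 2450 lower at 24 h and 1455 higher at 24 h against 6 h. The fit of only the groups compared gave 1933 there, and the main fit 4423. The cause of these shifts was not tested.

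Leaving out each library in turn gave 15 to 29 higher and 4 to 7 lower at 6 h (15 without 0 h replicate 2), 21 to 31 and 3 to 5 at 12 h, 34 to 38 and 2 to 4 at 24 h, and 22 to 36 and 0 to 2 at 24 h against 6 h. The medians were 0.3739 to 0.4657, 0.4385 to 0.5037, 0.7428 to 1.141, and 0.3738 to 0.9153. With the replicate number as a block, 21, 28, 35 and 28 members were higher and 6, 4, 3 and 0 lower. Same-numbered libraries correlated at -0.156 to 0.207 in their deviations from the group mean, and the own number correlated best in 8 of 30 cases. With group means of only 2 or 3 libraries, these values cannot decide whether the numbers mark pairs. Of 192 member values, 191 kept direction and call under limma-voom, and 191 under DESeq2.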
